A study of Mus musculus with 6 samples.

Results

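DNA damage repair genes were followed in sorted bone marrow progenitors of NHD13 transgenic mice and of wild type littermates. The 33 genes were chosen by name, as known repair factors, and matched to probes through the gene symbols of the platform annotation. Of these, 32 had at least 1 probe on the array, and 27 had a probe detected on at least 3 of the 6 arrays, among 9000 genes tested in all. Each gene was read from its brightest tested probe. None of the 27 passed the test between genotypes, and most lay slightly above 0 in NHD13 cells.

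The samples were 3 pools of lineage-negative, Kit-positive (LK) marrow cells from NHD13 mice and 3 such pools from wild type littermates. LK cells are the marrow fraction that holds blood stem and progenitor cells. NHD13 names a transgene for the NUP98-HOXD13 fusion protein, which is found in human myeloid leukaemia, and which in this mouse line is driven by the blood-cell promoter of Vav. Every pool held marrow of 3 mice at 3 months of age, and both genotypes went through the same sort and RNA extraction. The labels do not say whether pools were sorted on separate days, so the p-values measure the spread between these pools. The first principal component held 59.1% of the variance over all tested probes, and NHD13 replicate 2 stood apart on it, at -68.5 against -22.9 to 47.5 for the other 5 arrays. Values without this array are given for the pathways and for the members whose difference moved clearly.

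Cells repair DNA by several routes. Homologous recombination copies the intact sister strand and end joining ligates broken ends directly. The Fanconi anaemia proteins clear crosslinks between strands, and base excision and mismatch repair replace damaged or wrongly paired bases. Kinases such as Atm and Chek1 stop the cell cycle while this happens. In blood stem cells, inherited loss of Fanconi genes leads to marrow failure and leukaemia.

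Several members carried the E2F word in their promoters, the sequence bound by factors that switch on genes for DNA replication. The window searched ran from 250 bases before to 50 bases after a start position given for each gene on build GRCm38.p6. This position is not always the outer end of the gene's RefSeq span. Of the 33 members, 27 had such a window. Both strands were searched for the 8-letter forms TTTCCCGC and TTTGGCGC, and for the shorter forms GCGGGAA and GCGCCAA. The 8-letter form TTTCCCGC contains the shorter GCGGGAA on the other strand, so the counts overlap. The 8-letter word was in 5 of 27 members (18.5%), against 3.67% of 7383 tested genes and 1.80% of all 27025 genes with a window. A shorter word was in 12 of 27 members (44.4%), against 14.4% of the tested genes and 7.79% of all genes. Exo1, Fancd2, Nbn, Prkdc, Rad50 and Xrcc2 were the members not searched.

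The stretches of 60 bases around the 8-letter word are shown for the 5 members that hold it, because this word is what they share outside the list itself. They are read 5′ to 3′ on the strand of the gene, and capitals mark the word.
Brca2, chr5:150522427-150522486, plus strand: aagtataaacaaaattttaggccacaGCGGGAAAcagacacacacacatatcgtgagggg
Chek2, chr5:110839805-110839864, plus strand: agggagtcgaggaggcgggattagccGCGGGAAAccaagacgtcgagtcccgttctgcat
Fancg, chr4:43010320-43010379, minus strand: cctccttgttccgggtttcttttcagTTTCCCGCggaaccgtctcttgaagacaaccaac
Msh6, chr17:87975039-87975098, plus strand: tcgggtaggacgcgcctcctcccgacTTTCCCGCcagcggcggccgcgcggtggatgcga
Xrcc6, chr15:82016297-82016356, plus strand: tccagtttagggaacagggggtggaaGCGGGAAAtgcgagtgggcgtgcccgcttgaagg
The word began 168, 152, 52 and 46 bases before the start position used for Brca2, Chek2, Fancg and Xrcc6, and 15 bases after that of Msh6. In Brca2, Chek2, Fancg and Xrcc6 the word lies inside the gene's RefSeq span, which for Xrcc6 begins far upstream, at chr15:81987833.

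Fanci, the member with the smallest p-value, held a shorter word 18 bases after the start position used. Its whole window is shown, with that word in capitals.
Fanci, chr7:79392088-79392387, plus strand: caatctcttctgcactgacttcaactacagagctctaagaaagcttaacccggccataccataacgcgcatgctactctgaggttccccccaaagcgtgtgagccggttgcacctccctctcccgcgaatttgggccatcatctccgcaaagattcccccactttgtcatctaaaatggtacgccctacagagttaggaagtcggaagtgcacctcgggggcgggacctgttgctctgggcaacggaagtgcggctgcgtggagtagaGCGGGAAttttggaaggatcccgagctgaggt
The differences between genotypes were set side by side for members with and without a word. Tested members with a shorter word had a median log2 difference of 0.17 (10 genes), against 0.15 in those without it (13 genes). Those with the 8-letter word had a median of 0.12 (5 genes), against 0.17 without it (18 genes). Over all tested genes the medians were 0.03 with a shorter word and 0.03 without it. A match describes these letters only, and no factor was measured.

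None of the 27 tested repair genes was called, by limma with Benjamini-Hochberg adjustment over all tested probes at 0.05. The same test called 0.556% of all 9000 tested genes, and a count of 0 among 27 lies near that background. The adjusted p-values of the members ran from 0.64 to 0.99 (limma). One member, Fanci, had an unadjusted p under 0.05, against 690 of 9000 genes. In all, 22 members lay above 0 and 5 below, which is 81.5% above 0, against 54.1% of all tested genes. Their median log2 difference was 0.15 and their range was -0.29 to 0.48, against a median of 0.03 over all tested genes. The groups did not overlap for 2 members that were higher in NHD13 (7.41%), against 6.71% of all tested genes. They did not overlap for 1 member that was lower in NHD13 (3.70%), against 5.83% of all tested genes.

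The precision for single genes is given by their intervals. The 95% interval of a member's difference reached 0.43 in log2 to either side at the median, from 0.32 to 0.97. For 23 of the 27 members this interval lay wholly inside a 2-fold change in either direction. The spread between pools of one genotype was 0.20 at the median (pooled SD in log2), against 0.25 over all tested genes.

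**Figure D1:**
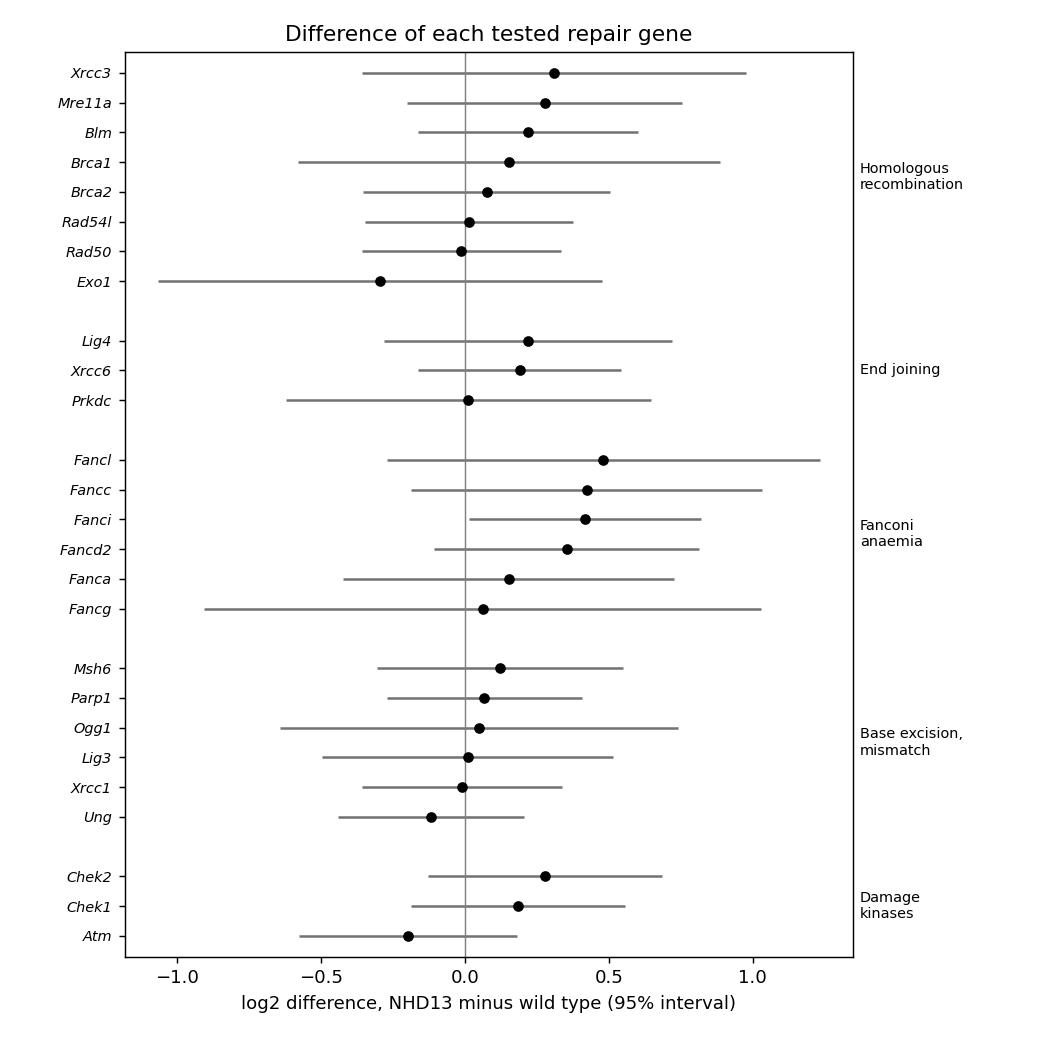
Log2 difference, NHD13 minus wild type, of each of 26 tested repair genes (points) with its 95% interval (lines), grouped by pathway. All intervals drawn but that of Fanci span 0, and all 6 Fanconi genes lie above 0.

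Fanconi anaemia genes stood highest among the pathways, with all 6 tested members above 0 and a median log2 difference of 0.38, and 0 of them passed. Their mean was lowest on wild type replicate 1, at -0.43 from the 6-array mean, and Fanca and Fancg turned in sign without that array. The difference between pathways was not tested. Fanci and Fancd2 form the pair that is marked with ubiquitin when a crosslink is met. Fanci measured 7.65, 7.81 and 7.58 in the NHD13 pools, against 7.11, 7.50 and 7.19 in the wild type pools (log2 intensity). All 3 NHD13 values lay above all 3 wild type values. The difference was 0.42 ± 0.17 (SE, n = 3 pools each), or 1.33-fold, with an interval of 0.01 to 0.82 before adjustment and an adjusted p of 0.64 (limma). Its partner Fancd2 measured 9.52, 9.74 and 9.18 in the NHD13 pools, against 8.95, 9.19 and 9.24 in the wild type pools. NHD13 replicate 3 lay inside the wild type range, and the difference was 0.35 ± 0.19 (SE, adjusted p = 0.70, limma), or 0.22 without NHD13 replicate 2.

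Fancl, the ubiquitin ligase that marks that pair, had the largest difference of the members. It measured 8.88, 8.95 and 7.89 in the NHD13 pools, against 8.05, 8.38 and 7.84 in the wild type pools. NHD13 replicates 1 and 2 were above all wild type pools and NHD13 replicate 3 was among them. The difference of 0.48 ± 0.32 (SE), or 1.39-fold, did not pass (adjusted p = 0.73, limma). Of the other 3 tested probes of Fancl, 1 lay above 0 and 2 below, and none was called. These differed by -0.21, 0.22 and -0.58 in log2, in order of falling brightness, and the dimmest of these was detected on 3 of 6 arrays. Averaged over its tested probes, Fancl differed by -0.02. Its direction therefore depends on the probe read.

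Fancc, a member of the complex that recruits this ligase, measured 7.20, 8.11 and 7.44 in the NHD13 pools, against 7.03, 7.35 and 7.10 in the wild type pools. NHD13 replicate 1 lay within the wild type range and NHD13 replicate 2 well above it. The difference was 0.42 ± 0.26 (SE, adjusted p = 0.71, limma), and 0.16 without NHD13 replicate 2. Its dimmer probe, detected on all 6 arrays, gave 0.15. Fanca and Fancg, of the same complex, differed by 0.15 and 0.06, with intervals of -0.42 to 0.73 and -0.91 to 1.03. Without NHD13 replicate 2 they differed by 0.08 and 0.32, and without wild type replicate 1 by -0.02 and -0.35. Fancg was dim and was detected on 2 of 3 wild type arrays. Fancb, also of this complex, had 1 probe and was detected on 0 of 6 arrays.

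Homologous recombination and end resection genes had a median log2 difference of 0.15 over 9 tested members, 7 above 0 and 2 below, and 0 passed. Without NHD13 replicate 2 this median was 0.01. Blm, the helicase lost in Bloom syndrome, measured 11.36, 11.47 and 11.35 in the NHD13 pools, against 10.95, 11.30 and 11.28 in the wild type pools. All 3 NHD13 values were the higher ones, but the gap to wild type replicate 2 was narrow. The difference was 0.22 ± 0.16 (SE, adjusted p = 0.75, limma), and a second probe of Blm gave 0.14.

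Xrcc3, which acts in strand exchange, measured 7.40, 8.17 and 7.35 in the NHD13 pools, against 7.13, 7.71 and 7.17 in the wild type pools. The arrays numbered 2 were the highest of each genotype, and the groups overlapped. The difference was 0.31 ± 0.28 (SE, adjusted p = 0.79, limma), and 0.04 without NHD13 replicate 2. Mre11a and Rad50, which together with Nbn sense and trim broken ends, differed by 0.28 and -0.01. All 3 tested probes of Mre11a lay above 0, from 0.12 to 0.35. Without NHD13 replicate 2 Mre11a differed by 0.17. Nbn was detected on 0 of 6 arrays with any of its 3 probes.

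The breast cancer genes Brca1, which promotes trimming of the ends, and Brca2, which readies them for strand exchange, differed by 0.15 and 0.08. Brca1 was dim, was detected on 2 of 3 wild type arrays and had a wide interval of -0.58 to 0.88. Brca2 had 2 tested probes, both at 0.08, and an interval of -0.35 to 0.50. Without NHD13 replicate 2 Brca1 differed by 0.01 and Brca2 by 0.00. The array that did not detect Brca1 was wild type replicate 3, at 5.12. Without that array Brca1 turned to -0.17. Rad54l, a motor protein of strand exchange, differed by 0.01 with an interval of -0.35 to 0.37, and by -0.01 without NHD13 replicate 2.

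Exo1, an exonuclease of end trimming and mismatch repair, was the member farthest below 0. It measured 5.03, 6.08 and 5.03 in the NHD13 pools, against 6.02, 5.46 and 5.54 in the wild type pools. It was detected on 1 of 3 NHD13 arrays, replicate 2, and on 3 of 3 wild type arrays, so the values of the other NHD13 pools are near background. Wild type replicates 2 and 3 were near background too, just above the lowest detected values of those arrays, 5.42 and 5.46. The difference was -0.29 ± 0.33 (SE, adjusted p = 0.81, limma), and -0.64 without NHD13 replicate 2. Xrcc2 was not analysed here.

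**Figure D2:**
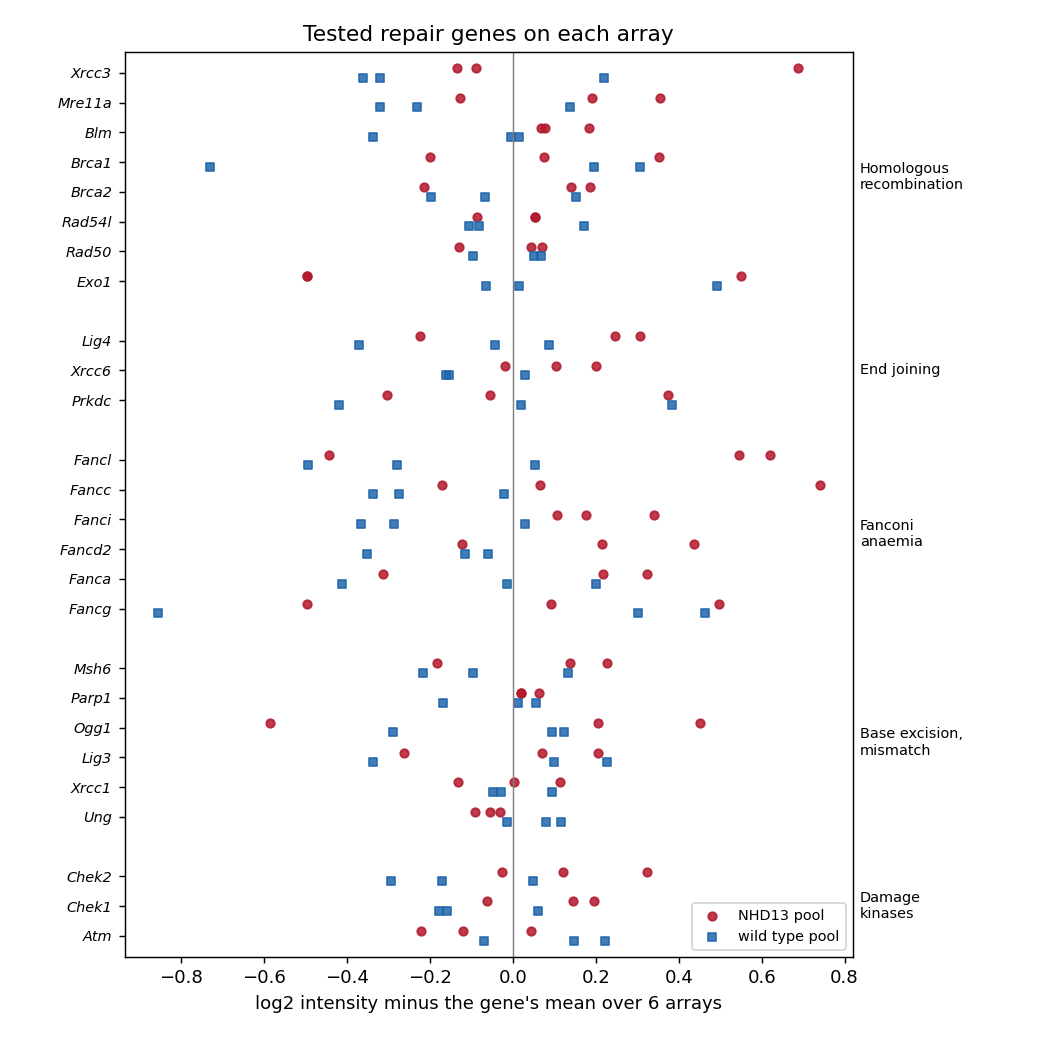
Log2 intensity of each of 26 tested repair genes on each array, less the gene's own mean over the 6 arrays; circles are NHD13 pools and squares wild type pools. The groups overlap for all genes drawn but Fanci and Blm, where NHD13 is higher, and Ung, where NHD13 is lower.

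End joining genes had a median difference of 0.19 over 3 tested members, all above 0, and 0 passed. Xrcc6, the smaller subunit of the Ku ring that grips broken ends, measured 12.41, 12.51 and 12.29 in the NHD13 pools, against 12.15, 12.34 and 12.16 in the wild type pools. NHD13 replicate 3 lay just below wild type replicate 2. The difference was 0.19 ± 0.15 (SE, adjusted p = 0.76, limma), and its other probes gave 0.17 and 0.34. Lig4, the ligase of this route, measured 5.64, 5.17 and 5.70 in the NHD13 pools, against 5.48, 5.02 and 5.35 in the wild type pools. It was close to background, detected on 2 of 3 NHD13 and 1 of 3 wild type arrays, and differed by 0.22 ± 0.21 (SE, adjusted p = 0.79, limma), or 0.39 without NHD13 replicate 2. Prkdc, the DNA-dependent protein kinase, differed by 0.01 with an interval of -0.62 to 0.65, and by 0.17 without NHD13 replicate 2. Xrcc4, the partner of Lig4, with 2 probes, and Xrcc5, the larger Ku subunit, with 1 probe, were detected on 0 of 6 arrays. So few probes do not settle whether these genes were expressed.

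Base excision, nick sealing and mismatch genes lay closest to 0 of the pathways, with 4 of 6 tested members above 0, a median difference of 0.03 and 0 passing. Ung, which removes uracil from DNA, measured 11.22, 11.19 and 11.16 in the NHD13 pools, against 11.23, 11.33 and 11.36 in the wild type pools. All 3 NHD13 values were lower, with NHD13 replicate 1 just under wild type replicate 1. The difference was -0.12 ± 0.14 (SE, adjusted p = 0.82, limma), its next brightest probe gave -0.05 and its dimmest gave 0.08.

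Msh6, which recognises mispaired bases, measured 11.88, 11.97 and 11.56 in the NHD13 pools, against 11.65, 11.88 and 11.53 in the wild type pools. The groups overlapped, replicate 3 was the lowest of each genotype, and the difference was 0.12 ± 0.18 (SE, adjusted p = 0.86, limma), or 0.04 without NHD13 replicate 2. Parp1, the sensor of nicks, differed by 0.07, its next brightest probe by -0.14 and its dimmest by 0.16. Xrcc1 and Lig3, the scaffold and the ligase that seal nicks, differed by -0.01 and 0.01, and Lig3 by -0.09 without NHD13 replicate 2. Ogg1, which removes oxidised guanine, differed by 0.05 with an interval of -0.64 to 0.74, and by -0.17 without NHD13 replicate 2.

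Of the damage signalling kinases 2 of 3 tested lay above 0, with a median difference of 0.18, and 0 passed. Chek2, which relays the signal of Atm, measured 8.63, 8.84 and 8.48 in the NHD13 pools, against 8.34, 8.56 and 8.22 in the wild type pools. NHD13 replicate 3 lay below wild type replicate 2, and the difference was 0.28 ± 0.17 (SE, adjusted p = 0.71, limma), or 0.19 without NHD13 replicate 2. Between pools of the same replicate number Chek2 differed by 0.29, 0.28 and 0.27, and with the replicate block its adjusted p was 0.35 (limma). It was not alone in this: 12 tested members had all 3 such differences above 0, and 1 had all 3 below. The same counts were not made over all tested genes, so these have no background to be read against. Chek1, which relays the signal of Atr, differed by 0.18 with an interval of -0.19 to 0.56, and its dimmer probe by -0.02. Atm, the kinase activated by broken ends, measured 10.56, 10.66 and 10.83 in the NHD13 pools, against 10.93, 11.01 and 10.71 in the wild type pools. NHD13 replicates 1 and 2 were the lowest of the 6 arrays, and NHD13 replicate 3 lay between wild type values. The difference was -0.20 ± 0.16 (SE, adjusted p = 0.76, limma), and other probes of Atm gave 0.04 and -0.06. Atr, the kinase of stalled replication forks, had 1 probe and was detected on 0 of 6 arrays.

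NHD13 replicate 2 was the highest array for 17 of the 27 members (63.0%), against 31.0% of all tested genes, and the lowest for 0. Wild type replicate 1 was the lowest for 12 members (44.4%), against 19.8% of all tested genes. The mean of the members deviated from their 6-array mean by 0.07, 0.21 and -0.07 in the NHD13 pools, against -0.17, 0.06 and -0.10 in the wild type pools. Wild type replicate 2 thus lay above NHD13 replicate 3, and between pools of the same number the mean differed by 0.23, 0.15 and 0.03. Without NHD13 replicate 2 the members' median difference was 0.08 with 19 of 27 above 0 and 3 members turned in sign, against a median of 0.01 over all tested genes. The Fanconi median was then 0.26, the end joining median 0.17, the kinase median 0.13 and the base excision median -0.08. Fanci differed by 0.35, Fancl by 0.29 and Blm by 0.18 without this array, and 0 members passed. Without wild type replicate 1, 17 members lay above 0 and the median was 0.10. More members turned in sign without that array than without NHD13 replicate 2. They were Brca2 (-0.01), Rad54l (-0.04), Rad50 (0.02), Prkdc (-0.20), Fanca (-0.02), Fancg (-0.35) and Ogg1 (-0.08). Without both arrays numbered 2 the members' median was 0.17 with 20 above 0.

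**Figure D3:**
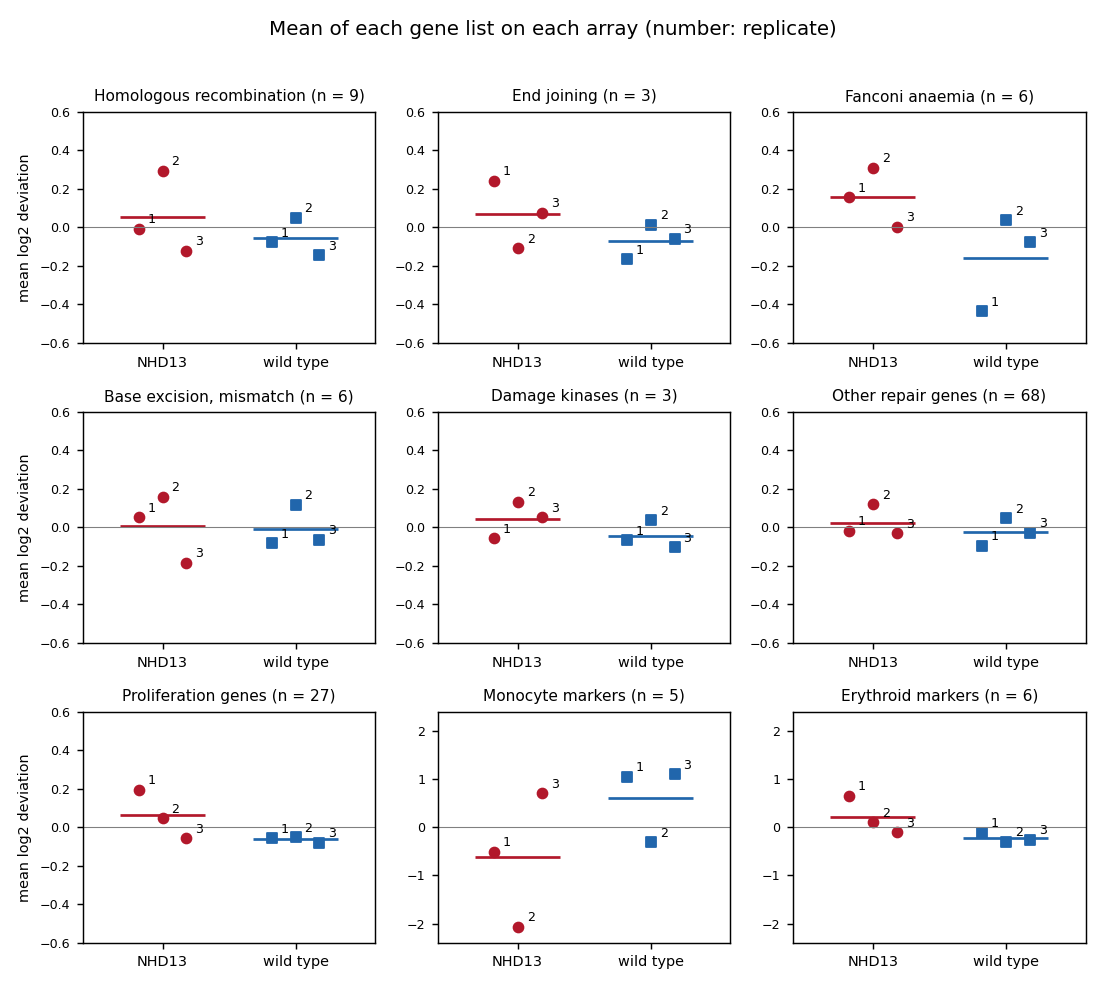
Mean log2 deviation of each gene list from its 6-array mean, per array, with NHD13 on the left and wild type on the right; small numbers are replicates, bars group means, n genes, and the monocyte and erythroid panels have a wider axis. NHD13 replicate 2 is the highest array for all repair pathways but end joining, at 0.30 for homologous recombination, 0.31 for Fanconi, 0.16 for base excision and 0.13 for the kinases.

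NHD13 replicate 2 was also the lowest array in monocyte markers. The 5 tested monocyte and macrophage markers deviated by -0.50, -2.06 and 0.72 in the NHD13 pools, against 1.05, -0.31 and 1.10 in the wild type pools. Erythroid markers, 6 tested of 8, deviated by 0.66, 0.10 and -0.10 in the NHD13 pools, against -0.11, -0.29 and -0.26 in the wild type pools. The mean of NHD13 replicate 2 joins markers that went opposite ways. Gata1 (9.68), Klf1 (11.84), Epor (10.21) and Tfrc (12.82) were highest of the 6 arrays there. Hba-a1 (12.79) and Alas2 (5.77) were lowest of the NHD13 pools there. The part of these shifts, and of those in the progenitor and neutrophil markers, in the repair values was not tested. In RNA of many cells, fewer cells of a type and less RNA per cell cannot be told apart.

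Kit, the receptor of the sort, was detected on all arrays. Its log2 intensity averaged 12.60 ± 0.26 over the NHD13 pools and 12.82 ± 0.18 over the wild type pools (SD, n = 3 each). Of 8 stem and progenitor markers 7 were tested, with mean levels of 8.81 to 10.18 in NHD13 pools and 10.08 to 10.38 in wild type pools, and Flt3 was detected on 0 arrays. All 7 lay below 0, with a median difference of -0.68, and none was called. They deviated by -0.27, -1.10 and 0.28 in the NHD13 pools, against 0.48, 0.17 and 0.44 in the wild type pools. Their mean was thus lowest on NHD13 replicate 2 too. On that array Cd34, Mpo, Cebpa, Spi1 and Myb were at their lowest, while Kit (12.85) and Gata2 (11.53) lay inside their wild type ranges. Cd34 was lower in all 3 NHD13 pools, at 5.79, 5.05 and 7.30, against 7.87, 7.63 and 7.82 in the wild type pools (adjusted p = 0.46, limma). Of 8 maturing neutrophil markers 6 were tested, with mean levels of 8.20 to 11.92 in NHD13 pools and 7.87 to 12.13 in wild type pools, while Itgam was detected on 0 arrays. Their mean deviated by -0.56, -1.80 and 1.93 in the NHD13 pools, against 0.42, -2.12 and 2.13 in the wild type pools. Within each genotype it was lowest on replicate 2 and highest on replicate 3. For T and NK cells, 1 of 6 markers was tested, and Cd3d, Cd4, Cd8a, Klrb1c and Ncr1 were detected on 0 arrays. For B cells 2 of 6 were tested and Pax5 was detected on 0, and for stroma and endothelium 2 of 6 were tested, with Col1a1 and Cdh5 on 0.

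Of 93 further repair genes 68 were tested, 48 of them above 0 (70.6%), with a median difference of 0.14. One was called, lower in NHD13, and 0 were called higher. This was Dntt, which adds bases at joints of antigen receptor genes in early lymphocytes and is no general repair factor. It measured 5.38, 4.93 and 4.78 in the NHD13 pools, where no array detected it, against 7.17, 6.93 and 7.82 in the wild type pools. The tested log2 difference, which uses these NHD13 values below background, was -2.28 (adjusted p = 0.031, limma). Against the lowest detected values Dntt was at least 3.63-fold lower in NHD13, a bound that was not itself tested. Dntt did not pass with the replicate number as a block (adjusted p = 0.058, limma). It passed in 6 of 17 alternatives, with adjusted p-values from 0.00722 to 0.19 (limma), and lay below 0 in all of them. Beside it, the 2 tested B cell markers had a median difference of -0.44 and their part in the Dntt value was not tested. The other homologous recombination genes had a median of 0.23 with 10 of 14 tested above 0. The other Fanconi genes had a median of 0.19 with 7 of 8 above 0, so Fanconi was not the highest list here. For base excision the median was 0.16 with 9 of 12 above 0, and for end joining, with Dntt, 0.14 with 3 of 5. Genes of nucleotide excision and direct reversal, taken as 1 list, had a median of 0.10 with 8 of 14 above 0. Mismatch repair stood at 0.07 with 3 of 3 above 0, and damage signalling at 0.06 with 8 of 12.

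Many repair genes are made mostly in dividing cells, so genes of the cell cycle were set beside them. Of 33 proliferation genes 27 were tested, 19 lay above 0 (70.4%), the median difference was 0.09, and 0 passed (limma, with 2 at an unadjusted p under 0.05). Those were Ccne2, a cyclin of replication entry, which averaged 8.66 in NHD13 and 8.18 in wild type pools (adjusted p = 0.53, limma), and Plk1, a kinase of mitosis, which averaged 11.41 in NHD13 and 11.01 in wild type pools (adjusted p = 0.65, limma). The groups did not overlap for 6 of the 27 proliferation genes (22.2%), all higher in NHD13, against 6.71% of all tested genes. Besides Ccne2 and Plk1 these were Cdc6, Cdc20, Mcm4 and Mcm2, named after their values were seen, with differences of 0.37, 0.25, 0.19 and 0.11. The proliferation genes deviated by 0.20, 0.05 and -0.06 in the NHD13 pools, against -0.06, -0.05 and -0.08 in the wild type pools. Here NHD13 replicate 1 was the highest array, while for the repair genes it was NHD13 replicate 2.

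**Figure D4:**
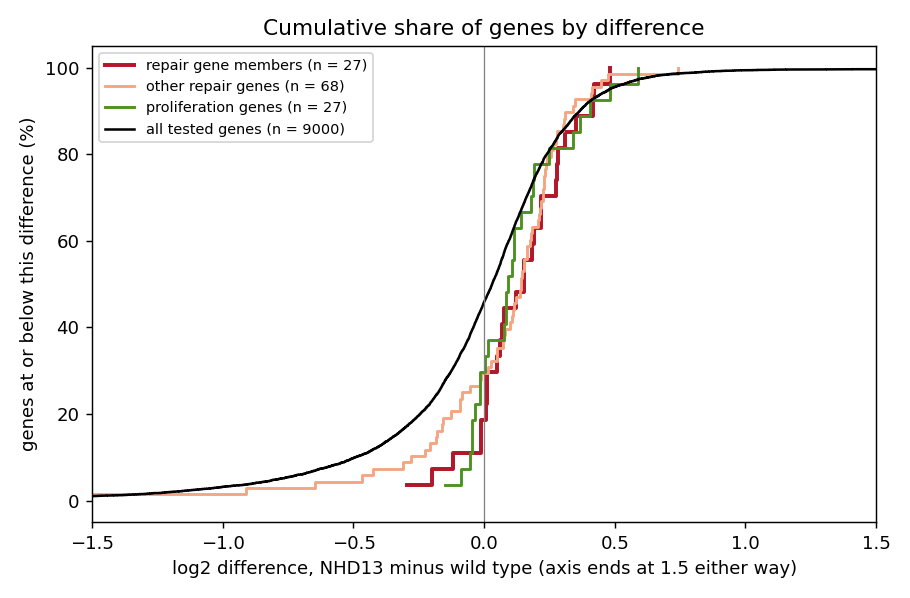
Cumulative share of genes (vertical axis, %) by log2 difference, NHD13 minus wild type (horizontal axis), for the repair genes, the other repair genes, the proliferation genes and all tested genes. The repair gene curve runs from -0.29 to 0.48 and crosses 50% at 0.15, against 0.03 for all tested genes.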

How the data were processed

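RNA of 6 pools, 3 per genotype, was read on bead arrays. Per the file headers, the deposited table gives each probe's mean intensity, number of beads, standard error and a detection p-value, with no normalization or background subtraction; the scanner software is not given in the sources used here. The authors also deposited processed intensity values in another table, with values below 0, much the same distribution on every array and equal ranks within an array (Spearman's rho of 1); no source used here gives their making. Each array detected 15983 to 16836 of 45281 probes and read a probe from 42 or 43 beads at the median. The number of arrays limits the precision. Within a genotype 22.5% to 47.6% of probes differed between arrays by over 2 bead standard errors, so no array was a copy.

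Intensity was normalized with neqc of limma 3.58.1 (R 4.3.3; offset 16, controls inferred from detection p-values) and tested two-sided with lmFit and eBayes on the 16518 probes detected (p under 0.05) on at least 3 arrays, with Benjamini-Hochberg adjustment over those probes. Each gene was read from its tested probe of highest mean. The fit was run on simulated data with noise drawn independently for each array. That run cannot show how the fit behaves where same-numbered arrays deviate together. Symbols came from the platform annotation (34885 probes with 1 symbol, 18 with several, 10378 unnamed). A gene below background on all arrays of a genotype has a bound against the lowest detected value.

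Same-numbered arrays deviated together (correlations of 0.19, 0.67 and 0.54, and -0.61 to 0.24 between other pairs), which counts as pairing by a limit of 0.1 though it comes from the data, not the labels. The replicate block was an alternative. Members and lists were chosen with earlier results of these data known. Array values are given for members without overlap, or with the largest or second largest difference of their pathway; Fancd2 was added after its values were seen. The values of 1 tested member are counted in the summaries but are not reported here.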

Additional observations from a re-analysis of the deposited data

How the results depend on the processing

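No repair gene was called in any of 18 alternatives, and the members at an unadjusted p under 0.05 numbered 0 to 7, the 7 with array weights, which give NHD13 replicate 1 a weight of 5.02. The members' median difference stayed above 0, from 0.07 without background correction to 0.21 without wild type replicate 2. The base excision median lay between -0.08 and 0.12 and below 0 in 4 alternatives. The Fanconi median ran from 0.22 to 0.48. The kinase median was 0.039 with median scaling. Fancl turned to -0.0232 with its probes averaged, since 2 of its 4 probes lie below 0. The median of proliferation genes was 0.17 with median scaling and 0.18 with array weights, 0.04 to 0.15 without single arrays, and array weights called 1 of them, Ccne2. The count of other repair genes called, 1 for Dntt, was 0 without background correction, with the authors' values, without a detection filter, with detection on all 6 arrays (which drops Dntt), without both arrays numbered 2, and 0 without any single array. With the replicate block it was 0 as well, and the block changed no other call named here. No slide names are in the table, so a slide block was not run. All genes called numbered 50 in the reported fit, against 27 without background correction, 30 with the authors' values, 6 with detection on all 6 arrays, 342 with array weights, 16 without both arrays numbered 2, and 1 (without wild type replicate 1) to 60 without single arrays. Dim probes (Exo1, Lig4, Brca1, Fancg) limit what can be said of those genes.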
